A study of Mus musculus with 2 samples.

Results

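The pyruvate dehydrogenase complex and its regulators were followed here through 10 genes of 55536 in the deposited gene tables. They were chosen by symbol: Pdha1, Pdhb, Dlat and Dld for the catalytic subunits, Pdk1, Pdk2, Pdk3 and Pdk4 for the kinases, and Pdp1 and Pdpr for the phosphatase. All 10 had a row in both libraries, and their 49 annotated transcripts had rows in every transcript table. Total RNA was taken from the calf muscle gastrocnemius of B6CASTF1/J females aged 36 days and gave 2 libraries. The strain is a cross of the B6 laboratory mouse with a castaneus mouse, taken in the first generation. The input was 300 ng of RNA per library, plus synthetic spike-ins. They form 1 group with no treatment and no control, so values are given for replicate 2 and replicate 1, and no test between conditions exists. The labels number them as biological replicates 1 and 2. Whether they represent separate animals is not stated in the labels, and their spread may be technical in part.

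The libraries stood apart in ways that bear on every ratio between them. Depth was 40656175 estimated counts for replicate 2 and 37735687 for replicate 1, of which mitochondrial genes took 17.5% and 9.39% and spike-ins 0.479% and 0.646%. The labelled tissue was checked against fast-fibre markers, and 8 of 8 were detected in both libraries, with sums of 63050 TPM in replicate 2, against 83740 TPM in replicate 1. TPM is a transcript level corrected for length and scaled to a fixed total. Slow-fibre markers summed to 2925 TPM in replicate 2 and 23.5 TPM in replicate 1, while fat cell markers summed to 113 TPM in replicate 2 and 346 TPM in replicate 1. In bulk RNA, fewer cells of a type and less RNA per cell cannot be told apart.

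The complex sits in the mitochondrial matrix and turns pyruvate, the end product of glycolysis, into acetyl-CoA for the citric acid cycle. E1, made of alpha and beta subunits, removes carbon dioxide from pyruvate with thiamine diphosphate. E2 passes the acetyl group from its lipoyl arm to coenzyme A, and E3 reoxidises that arm. The kinases bind E2 and switch the complex off by phosphorylating serines of E1 alpha, and the phosphatase removes those phosphates. In skeletal muscle this switch is known for its part in the choice between glucose and fatty acids as fuel. PDK4 is the kinase best known to accumulate in fasting.

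The serines on which the kinases act are shown in the coding sequence of Pdha1, because the kinase and phosphatase genes below all converge on them. Both stretches come from the GENCODE M21 transcript Pdha1-201, on the minus strand of chromosome X in mm10, and capitals mark the serine codons. The first runs from codon 286 to codon 307 and holds serines 293 and 300, counted from the start codon. The second runs from codon 225 to codon 239 and holds serine 232, the site for which PDK1 is known.
Pdha1 codons 286 to 307: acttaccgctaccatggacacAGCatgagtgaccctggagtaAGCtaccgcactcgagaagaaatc
Pdha1 codons 225 to 239: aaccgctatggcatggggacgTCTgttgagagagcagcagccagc

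The promoters of the 2 most abundant kinase genes are shown because the results below turn on their balance, and that of Pdhb as a subunit gene. Sequences run from 250 bases before to 50 bases after the start given by RefSeq (GRCm38.p6), 5′ to 3′ on the strand of the gene. They lie at chr6:5496229-5496528 for Pdk4, chr11:95041322-95041621 for Pdk2 and chr14:8172943-8173242 for Pdhb, all on the minus strand. Capitals mark matches to CCAAT or CACGTG on either strand, so that CCAAT on the other strand reads ATTGG.
Pdk4 promoter: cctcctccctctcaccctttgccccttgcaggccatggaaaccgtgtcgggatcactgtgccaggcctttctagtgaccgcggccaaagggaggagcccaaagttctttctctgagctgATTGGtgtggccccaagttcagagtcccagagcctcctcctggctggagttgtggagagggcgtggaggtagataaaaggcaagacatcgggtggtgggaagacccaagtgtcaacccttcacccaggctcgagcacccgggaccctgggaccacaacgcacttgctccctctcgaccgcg
Pdk2 promoter: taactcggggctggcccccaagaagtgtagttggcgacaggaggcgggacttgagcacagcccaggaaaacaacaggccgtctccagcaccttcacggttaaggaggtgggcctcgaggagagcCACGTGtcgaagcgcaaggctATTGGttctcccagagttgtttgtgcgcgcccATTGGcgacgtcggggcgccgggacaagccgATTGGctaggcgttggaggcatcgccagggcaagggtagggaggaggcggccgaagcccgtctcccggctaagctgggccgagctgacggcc
Pdhb promoter: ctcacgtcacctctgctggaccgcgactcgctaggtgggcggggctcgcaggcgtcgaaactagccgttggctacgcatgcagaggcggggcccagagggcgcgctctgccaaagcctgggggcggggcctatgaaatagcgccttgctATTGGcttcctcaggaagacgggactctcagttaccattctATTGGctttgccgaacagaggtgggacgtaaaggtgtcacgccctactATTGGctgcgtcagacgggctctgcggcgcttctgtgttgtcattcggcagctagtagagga

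RefSeq gave 11 promoters for 9 of the members, with a second start for Pdk1 and for Pdk2 and none for Pdp1. The members' promoters held a median of 21 CG pairs in 300 bases, against a median of 7 over all 32851 promoters. They ranged from 2 at the second start of Pdk1 to 47 at Pdpr, with 12 at Pdk4 and 25 at the Pdk2 start shown. CCAAT was present in 5 of 11, against 37.4% of all promoters, and CACGTG in 2 of 11, against 7.15%. No member promoter held TATAAA, which 13.6% of all promoters held, or AAGGTCA, which 4.72% held. Both strands were searched and these are matches of letters within a short window only.

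The 4 subunit genes were expressed at different levels, with the gene for E1 alpha highest. Pdha1 (ENSMUSG00000031299.10, chrX:160122209-160138413) had 228 TPM in replicate 2 and 168 TPM in replicate 1, from 19696 and 13817 counts. The intervals that the gene table gives for these TPM values were 219 to 228 in replicate 2 and 161 to 168 in replicate 1, and their level is not stated. Pdhb (ENSMUSG00000021748.9, chr14:8165996-8173025), the gene for E1 beta, had 124 TPM in replicate 2, against 88.8 TPM in replicate 1. The partner chains of E1 thus had unequal RNA levels, and Pdhb stood at 0.544 of Pdha1 in replicate 2 and 0.529 in replicate 1. Dlat (ENSMUSG00000000168.9, chr9:50634633-50659780), the gene for E2, had 81.3 and 62.2 TPM in replicates 2 and 1. Dld (ENSMUSG00000020664.10, chr12:31331277-31351453), the gene for E3, had 76.6 TPM in replicate 2 and 59.1 TPM in replicate 1. E3 is also part of the 2-oxoglutarate and branched-chain complexes, so its RNA is shared with those complexes.

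The ranges of Dlat and Dld over the libraries overlapped each other. Those of Pdha1 and Pdhb met neither each other nor those of Dlat and Dld. Relative to Pdha1, Dlat stood at 0.357 in replicate 2 and 0.371 in replicate 1, and Dld at 0.336 and 0.352. The ratios within the complex therefore moved little between libraries whose levels differed. Pdhx, the gene for the protein that anchors E3 to the core, is not one of the 10. It had 34.1 TPM in replicate 2 and 26.8 TPM in replicate 1, or 0.150 and 0.160 of Pdha1. Pdha2, the testis gene for E1 alpha, was listed at 0 in both libraries.

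Among the kinases, Pdk4 was the most abundant RNA, followed by Pdk2, then Pdk1, with Pdk3 near the detection limit. Pdk4 (ENSMUSG00000019577.6, chr6:5483351-5496309) had 663 TPM in replicate 2 and 393 TPM in replicate 1, from 54696 and 29789 counts. It ranked at position 59 of 21938 protein-coding nuclear genes by mean TPM, above every subunit gene of the complex in both libraries. Pdk2 (ENSMUSG00000038967.13, chr11:95026258-95041354), a kinase expressed in many tissues, had 188 TPM in replicate 2 and 157 TPM in replicate 1, at rank 267. Pdk1 (ENSMUSG00000006494.11, chr2:71873224-71903858), known as a target of the hypoxia factor HIF-1, had 24.0 TPM in replicate 2 and 16.6 TPM in replicate 1. Pdk3 (ENSMUSG00000035232.8, chrX:93764607-93832201) had 0.61 TPM in replicate 2 and 0.69 TPM in replicate 1, from 37 and 32 counts, below the limit of 1 TPM used for detection. Its values in the 2 libraries lay within each other's intervals in the gene table, which ran from 0.501 to 1.40 and from 0.489 to 1.497.

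As shares of the summed TPM of the 4 kinase genes, Pdk4 held 75.7% in replicate 2 and 69.3% in replicate 1. Pdk2 held 21.5% in replicate 2 and 27.7% in replicate 1. Pdk1 held 2.74% and 2.92%, and Pdk3 held 0.0696% and 0.122%, in replicates 2 and 1. The balance of Pdk4 and Pdk2 thus differed between the libraries by more than counting error: by counts, the 95% Wilson interval of the Pdk4 share was 77.4% to 78.0% in replicate 2 and 70.6% to 71.5% in replicate 1. It also moved with the quantification. From the transcript tables made directly from the reads, Pdk4 held 72.3% in replicate 2 and 62.9% in replicate 1, and Pdk2 held 24.9% and 33.9%. The order Pdk4, Pdk2, Pdk1, Pdk3 was the same in both libraries and in both quantifications.

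**Figure D1:**
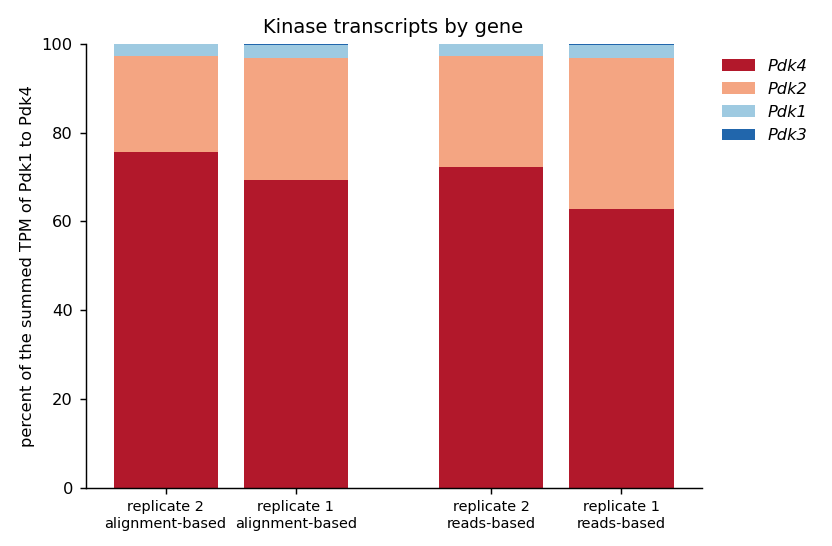
Share of each kinase gene in the summed TPM of Pdk1 to Pdk4 (vertical axis, percent), as stacked bars for replicate 2 and replicate 1 in the alignment-based and the reads-based tables. Pdk4 takes the largest part of every bar, from 75.7% in replicate 2 by alignment to 62.9% in replicate 1 by reads, and Pdk3 is barely visible.

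The phosphatase genes were lower than the subunit genes Pdha1, Pdhb, Dlat and Dld. Pdp1 (ENSMUSG00000049225.14, chr4:11958184-11966452), the calcium-stimulated catalytic subunit known from muscle, had 33.5 TPM in replicate 2 and 24.7 TPM in replicate 1. Pdpr (ENSMUSG00000033624.10, chr8:111094630-111137074), the regulatory subunit, had 41.1 TPM in replicate 2 and 33.8 TPM in replicate 1. Pdp1 stood at 0.147 of Pdha1 in both libraries. Pdp2, the gene for the other catalytic subunit and not one of the 10, had 2.91 TPM in replicate 2 and 0.88 TPM in replicate 1, from 525 and 151 counts. Its log2 ratio of 1.73 made it the gene of the complex farthest apart between the libraries, so that Pdp1 held 92.0% of Pdp1 plus Pdp2 in replicate 2 and 96.6% in replicate 1. The summed TPM of the kinases was 24.1 times that of Pdp1 plus Pdp2 in replicate 2 and 22.2 times in replicate 1. In the reads-based tables it was 27.14 and 26.45 times. Counting only the most abundant protein-coding transcript of each gene by alignment, it was 50.1 and 46.6 times. That count leaves out most coding RNA of Pdp1. All annotated Pdp1 transcripts are coding, and the one counted held 32.0% of its TPM in replicate 2 and 35.0% in replicate 1. RNA ratios of this kind say nothing about the amounts or the activity of the proteins.

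By mean TPM the order of all 10 was Pdk4, Pdha1, Pdk2, Pdhb, Dlat, Dld, Pdpr, Pdp1, Pdk1 and Pdk3, and it was the same in each library. As mean and SD over the libraries (n = 2), Pdk4 stood at 528 ± 191 TPM, Pdha1 at 198 ± 42.3 TPM and Pdk2 at 173 ± 21.9 TPM. At the lower end, Pdpr stood at 37.5 ± 5.17 TPM, Pdp1 at 29.1 ± 6.20 TPM and Pdk1 at 20.3 ± 5.26 TPM. The ranges over the libraries overlapped for the neighbours Pdha1 and Pdk2 and for Dlat and Dld, and the other neighbours did not overlap. In the reads-based tables Pdk2 stood above Pdha1 in both libraries, at 311 TPM against 296 TPM in replicate 2 and at 299 TPM against 237 TPM in replicate 1. In all, 9 of the 10 genes reached 1 TPM in both libraries, against 19.5% of all annotated genes. The exception was Pdk3.

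**Figure D2:**
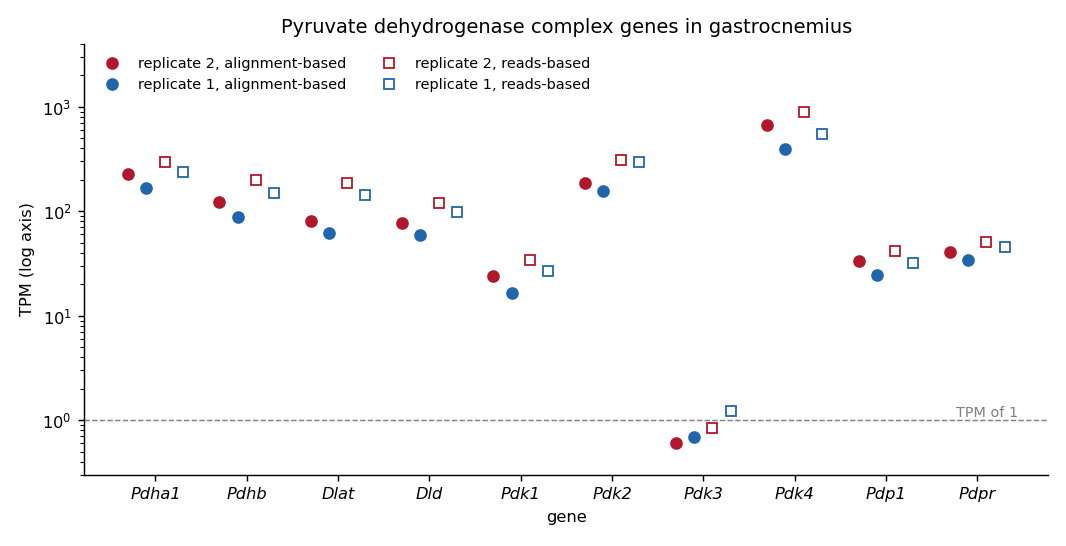
TPM of the 10 genes (log axis) in replicate 2 and replicate 1 from the alignment-based gene table (circles) and the reads-based transcript table summed per gene (squares). Pdk4 lies highest in all 4 columns, up to 902 TPM, Pdk3 lies about the dashed line at 1 TPM, and reads-based values lie above alignment-based ones for every gene.

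Apart from Pdk3 and Pdk4, the members were higher in replicate 2 by log2 ratios of 0.26 to 0.52, and Pdk4 by a larger one. Ratios here are log2 ratios of counts, replicate 2 over replicate 1, after scaling by the trimmed mean of M values (TMM). Of the 10 genes, 9 had a mean count of at least 100, and all 9 were higher in replicate 2, against 48.0% of the 9996 genes counted that deeply. Pdk3, with its low counts, had a ratio of 0.14 with a 95% exact counting interval of the fold from 0.668 to 1.83, and its sign turned to -0.18 by TPM. The median of the 10 was 0.45, beside a median of -0.013 over the 9996 genes, whose middle 90% ran from -0.48 to 0.63. Of the members, 9 thus lay inside the range that most genes covered, and Pdk4 lay above it. Within that range most members lay toward the upper end. Apart from Pdk3 and Pdk4, their ratios were larger in size than those of 68.1% (Pdk2) to 88.7% (Pdk1) of the 9996 genes.

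The 4 subunit genes differed between the libraries by almost the same factor. Their log2 ratios were 0.44 for Pdha1, 0.50 for Pdhb, 0.48 for Dlat and 0.42 for Dld, which as folds are 1.36, 1.41, 1.40 and 1.34. The 95% exact counting intervals of these folds overlapped, from 1.33 to 1.39 for Pdha1, 1.36 to 1.47 for Pdhb, 1.34 to 1.45 for Dlat and 1.29 to 1.39 for Dld. Pdp1 had a log2 ratio of 0.45, close to the subunits, and Pdk1 had 0.52. Pdk2 and Pdpr were less apart, at 0.26 and 0.28.

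Pdk4 was 1.75-fold higher in replicate 2, with a 95% exact counting interval of 1.73 to 1.78 that does not meet those of the subunits. Its log2 ratio of 0.81 was larger in size than those of 94.97% of the 9996 genes. With TMM it was the only member past 1.5-fold, which 5.64% of these genes exceeded upward and 3.34% downward, and no member was more than 1.5-fold lower. No member differed by more than 2-fold, against 2.09% of genes higher and 1.21% lower in replicate 2. Relative to Pdha1, Pdk4 stood at 2.92 in replicate 2 and 2.34 in replicate 1, and Pdk2 at 0.827 and 0.937. With 1 library on each side of the ratio, this difference has no replicate check.

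The size of these ratios depended on the scaling. Scaled to the spike-in total, the median of all genes moved to 0.38, that of the members to 0.84 and Pdk4 to 1.20. With that scaling, Pdk4 passed 2-fold and the genes past 2-fold numbered 519 higher and 66 lower in replicate 2, against 209 higher and 121 lower with TMM. Such a change of scaling shifts the log2 ratios of all genes by nearly the same amount, so the members necessarily kept their place among them.

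**Figure D3:**
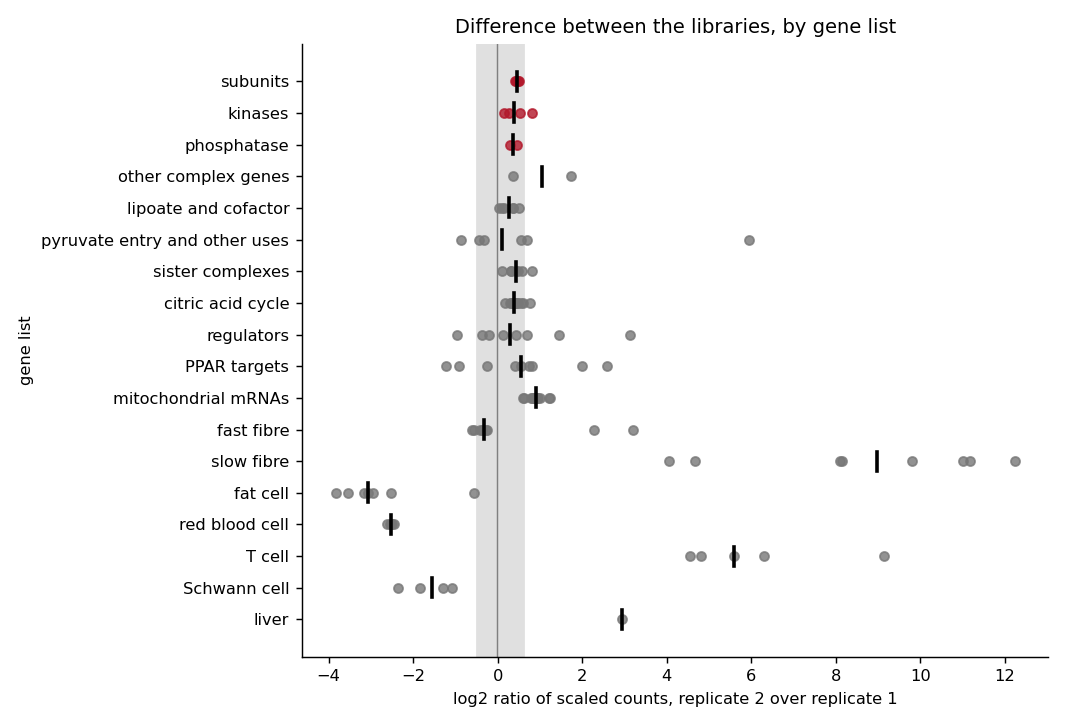
Log2 ratio of scaled counts, replicate 2 over replicate 1 (horizontal axis), for each gene of 18 lists whose mean count reached 10, with the members in red, the other genes in grey and the median of each list as a black bar. The shaded band is the middle 90% of the 9996 genes whose mean count reached 100, from -0.48 to 0.63. The members lie inside the band apart from Pdk4 at 0.81, while slow-fibre genes and all fat cell genes but Fabp4, at -0.55, lie far outside it.

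Neighbouring pathways of the mitochondrial matrix showed ratios like those of the subunits. All 14 citric acid cycle genes lay higher in replicate 2, with a median log2 ratio of 0.39 and a range of 0.17 to 0.77. Among the most abundant were Mdh2, malate dehydrogenase, with 423 TPM in replicate 2, against 325 TPM in replicate 1. The succinate dehydrogenase genes Sdhc and Sdha had 289 and 246 TPM in replicate 2, against 203 and 179.8 TPM in replicate 1. Of the sister complexes, 7 of 7 genes lay higher in replicate 2, with a median of 0.44. Ogdh, the E1 of the 2-oxoglutarate complex, had 272 TPM in replicate 2, against 220.1 TPM in replicate 1, and its E2 gene Dlst had 112 and 86.1 TPM. Bckdk, the kinase of the branched-chain complex, had 60.9 TPM in replicate 2, against 58.2 TPM in replicate 1, and Bckdha, the E1 alpha gene of that complex, had 41.7 and 30.8 TPM. By TPM, 1 of the 7, Dbt, lay lower in replicate 2. None of these 21 genes was more than 2-fold apart with TMM, where 2.09% of the 9996 genes were more than 2-fold higher and 1.21% lower in replicate 2. With so few genes past 2-fold, this count does not set these pathways apart. The subunits of the pyruvate complex did not stand out from these genes.

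The genes that attach lipoate to E2 or supply cofactors were low, with a median of 9.36 TPM in replicate 2, against 6.81 TPM in replicate 1. Among the highest were Lias, lipoate synthase, with 16.6 and 14.6 TPM, and Slc25a42, the coenzyme A carrier, with 15.9 and 11.0 TPM, in replicates 2 and 1. Of these 6 genes, 6 were higher in replicate 2, with a median log2 ratio of 0.26, and 5 were by TPM or in the reads-based table. Lipt1, a lipoyl transferase, had 2.78 and 2.61 TPM.

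Genes for the entry of pyruvate and for its other uses did not move together. Mpc1 and Mpc2, which form the mitochondrial pyruvate carrier, had 176 and 127 TPM in replicate 2 against 112 and 85.2 TPM in replicate 1, with log2 ratios of 0.70 and 0.54. Ldha, the lactate dehydrogenase subunit of fast muscle, had 1146 TPM in replicate 2 and 1443 TPM in replicate 1. Its log2 ratio was -0.32, which turned positive with spike-in scaling. Ldhb, the subunit common in oxidative muscle, had 154.9 TPM in replicate 2 and 2.16 TPM in replicate 1, from 5005 and 77 counts, a log2 ratio of 5.94. Gpt2, which makes alanine from pyruvate, had 119 TPM in replicate 2 and 180.1 TPM in replicate 1, with a log2 ratio of -0.45. Pcx, pyruvate carboxylase, had 24.9 TPM in replicate 2 and 43.4 TPM in replicate 1, with a log2 ratio of -0.86. Of the 6 genes, 3 were higher and 3 lower in replicate 2 with TMM, and 4 were higher and 2 lower with spike-in scaling.

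The known regulators of the kinase genes differed in both directions. Ppara, a nuclear receptor for fatty acids known to drive Pdk4, had 6.48 TPM in replicate 2 and 0.70 TPM in replicate 1, from 602 and 65 counts, a log2 ratio of 3.13. Ppargc1a, the coactivator of mitochondrial genes, had 23.5 TPM in replicate 2 and 8.09 TPM in replicate 1, a log2 ratio of 1.46. Foxo1, a factor also known for Pdk4, had 7.43 TPM in replicate 2 and 14.6 TPM in replicate 1, a log2 ratio of -0.96. Esrra had 33.4 and 20.1 TPM, Nr3c1, the glucocorticoid receptor, 28.2 and 34.2 TPM, and Foxo3 12.2 and 13.9 TPM, in replicates 2 and 1. Of the 8 regulators, 5 were higher and 3 lower in replicate 2, or 7 and 1 with spike-in scaling. Their part in the ratio of Pdk4 was not tested.

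Other genes known to respond to the PPAR receptors were likewise uneven, with 6 of 9 higher in replicate 2 and a median log2 ratio of 0.55. Fabp3, a fatty acid carrier of muscle, had 375 TPM in replicate 2 and 63.0 TPM in replicate 1, a log2 ratio of 2.58. Cd36, a fatty acid transporter, had 130.1 and 76.6 TPM, Cpt1b, the gate of mitochondrial fatty acid import, 109 and 82.5 TPM, and Ucp3 67.9 and 82.3 TPM. Acot1, an acyl-CoA thioesterase with a near-identical neighbour gene, had 2.92 and 1.12 TPM and a log2 ratio of 2.00. At a mean count of at least 10, 4.63% of all genes were more than 2-fold higher in replicate 2 and 3.09% more than 2-fold lower. On the list of 9, Fabp3 and Acot1 were more than 2-fold higher. Pdk4 at 0.81 thus lay above the median of these genes and within their range.

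Slow-fibre markers differed far more than the members did. The fast-fibre markers did not as a set, with a median log2 ratio of -0.32, beside 0.45 for the members. Of the slow-fibre markers, 8 of 8 were more than 2-fold higher in replicate 2. Myl2, Myh7 and Myl3, a light chain, the heavy chain and another light chain of slow myosin, had 666, 472 and 465 TPM in replicate 2 against 0.36, 0.24 and 0.08 TPM in replicate 1. Tnnt1, slow troponin T, had 321 TPM in replicate 2 and 1.19 TPM in replicate 1. Of the fast-fibre markers 6 of 8 were lower in replicate 2, or 3 of 8 with spike-in scaling. Mylpf, a fast light chain, and Myh4, the 2B heavy chain, had 14586 and 10376 TPM in replicate 2 against 21943 and 15369 TPM in replicate 1, with Tnnt3 at 12783 and 17113 TPM and Atp2a1, the fast calcium pump, at 9491 and 12302 TPM. The exceptions were Myh1, the 2X chain, and Myh2, the 2A chain, with log2 ratios of 3.21 and 2.29. Each of the 13 mitochondrial mRNAs was higher in replicate 2, with a median log2 ratio of 0.90, led by mt-Co1 with 15453 and 7992 TPM. Slow and 2A fibres are known to hold more mitochondria than 2B fibres, and the part of fibre makeup in the members' ratios was not tested.

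Fat, blood and nerve markers ran the other way. The 7 fat cell markers were all lower in replicate 2, 6 of them more than 2-fold, led by Cfd with 18.7 TPM in replicate 2, against 158 TPM in replicate 1 and Fabp4 with 88.4 and 127 TPM. Adipoq had 2.21 and 21.5 TPM and Cidec 1.45 and 19.3 TPM. The 5 red blood cell markers, summing to 425 TPM in replicate 2 and 2445 TPM in replicate 1, had a median log2 ratio of -2.52, led by Hbb-bs with 156 and 865 TPM. The 4 Schwann cell markers had a median of -1.56, and their TPM summed to 35.5 in replicate 2 and 116 in replicate 1. T cell markers summed to 5.38 TPM in replicate 2 and 0.20 TPM in replicate 1, where Cd3d and Rag1 had 0 counts. Of the liver markers, Alb had 2.91 TPM in replicate 2, against 0.36 TPM in replicate 1, and Apoa1 0.27 and 0.03 TPM. The share of these cells in the members' RNA was not tested.

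The transcripts behind each gene were known less surely than the gene totals. Both kinds of table gave one protein-coding transcript most of the counts for Pdha1, where Pdha1-201 took 97.1% of TPM in replicate 2 and 97.6% in replicate 1 by alignment, and 97.97% and 98.4% by reads. Pdhb-201, Dld-201 and Pdk2-201 also held over 90% of alignment-based TPM, at 97.5%, 96.1% and 97.8% in replicate 2 and 97.1%, 93.1% and 98.7% in replicate 1. In the reads-based tables the same transcripts held less, at 76.2%, 81.2% and 76.6% in replicate 2 and 79.7%, 80.3% and 70.9% in replicate 1. The rest went to non-coding transcripts of these genes, most of its TPM to short ones. Pdhb-207, a retained intron, held 36.6 TPM by reads in replicate 2 and 23.6 TPM in replicate 1, against 1.94 and 1.58 TPM by alignment. By reads-based counts more of Pdhb went to the longer Pdhb-204, a retained intron of 1914 bases, with 403 counts in replicate 2 and 238 in replicate 1, than to Pdhb-207, with 284 and 167. Dld-203, another retained intron, held 21.4 and 19.2 TPM by reads against 0.45 and 0.54 TPM by alignment. Pdk2-205, a processed transcript, held 55.4 and 51.4 TPM by reads, against 0 and 0.68 TPM by alignment, and Pdk2-204 held 16.5 and 33.0 TPM against 2.63 and 1.02 TPM.

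Pdk4 had 3 annotated transcripts, and the full-length Pdk4-201 held 96.0% of its alignment-based counts in replicate 2 and 95.7% in replicate 1. By TPM its share was 72.5% and 70.2%, because the other transcripts are short. Pdk4-202, 412 bases long and annotated as a retained intron, held 119 TPM in replicate 2 and 84.4 TPM in replicate 1 by alignment, but 22.0 and 33.8 TPM by reads. Pdk4-203, 573 bases long and annotated as coding, held 63.4 and 32.7 TPM by alignment, but 256 and 134 TPM by reads. The tables thus gave opposite orders to the short transcripts in both libraries. Little sequence tells them apart. Pdk4-202 runs on for 27 bases past the end of an exon of Pdk4-201, and Pdk4-203 skips 142 bases of the first exon that hold the start codon of Pdk4-201. Of 31-base words, 25 of 382 in Pdk4-202 and 27 of 543 in Pdk4-203 are absent from Pdk4-201. The stretches are shown with the extension in capitals for Pdk4-202, and with the bases after the skipping junction in capitals for Pdk4-203, both from GENCODE M21 on the minus strand of chromosome 6.
Pdk4-202 end: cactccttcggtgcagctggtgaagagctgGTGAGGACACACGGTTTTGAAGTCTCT
Pdk4-203 junction: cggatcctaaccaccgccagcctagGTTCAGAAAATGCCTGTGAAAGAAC

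Dlat, Pdk1, Pdp1 and Pdpr also had their TPM spread over transcripts. By alignment, Dlat-201, its only protein-coding transcript, held 58.8% of TPM in replicate 2, against 54.2% in replicate 1, and 33.5% and 32.9% by reads, although it took 89.6% and 87.5% of alignment-based counts. Dlat-202, a processed transcript, held 35.9% and 44.6% by alignment and 29.9% and 22.5% by reads. Dlat-206, a retained intron, held 0.53 and 0 TPM by alignment against 50.4 and 37.5 TPM by reads, and Dlat-203, another, held 2.43 and 0.23 TPM against 16.8 and 25.3 TPM. Among the members, Dlat had the widest gap between the tables, with reads-based TPM at 2.30 times the alignment-based TPM, against a median of 1.49 over 10498 genes and a middle 90% of 1.10 to 2.23. Counting Dlat-201 alone, E2 stood at 0.217 of Pdha1-201 in replicate 2 and 0.206 in replicate 1, and with all transcripts by reads it stood at 0.628 and 0.610 of Pdha1. Pdk1-206, a processed transcript, held 31.1% of Pdk1 in replicate 2 and 30.1% in replicate 1 by alignment, and 23.7% and 27.6% by reads, beside the coding Pdk1-201 at 68.2% and 69.8% by alignment and 66.6% and 64.2% by reads.

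Pdp1 has 6 annotated transcripts, all coding, and the tables disagreed on which led. By alignment Pdp1-201 held 32.0% in replicate 2 and 35.0% in replicate 1, Pdp1-202 31.03% and 22.3%, Pdp1-203 18.5% and 19.3%, Pdp1-205 13.1% and 9.11%, and Pdp1-206 5.35% and 14.3%. By reads Pdp1-205 held 77.0% in replicate 2 and 84.6% in replicate 1, with Pdp1-203 at 14.5% and 15.4%, and Pdp1-202 and Pdp1-206 were listed at 0. Pdp1-201, which led by alignment, held 8.42% by reads in replicate 2 and 0.0213% in replicate 1. Between 1.06% and 39.5% of the 31-base words of a Pdp1 transcript belong to it alone. For Pdpr, Pdpr-201 led in every table, at 87.0% in replicate 2 and 87.8% in replicate 1 by alignment and 87.0% and 83.2% by reads. The rest went to the coding Pdpr-202 by alignment, at 12.96% and 12.2%, and to Pdpr-203, a target of nonsense-mediated decay, by reads, at 12.98% and 16.8%. For Pdk3, Pdk3-201 held 0.56 TPM in replicate 2 and 0.49 TPM in replicate 1 by alignment, and the rest went to the non-coding Pdk3-203.

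**Figure D4:**
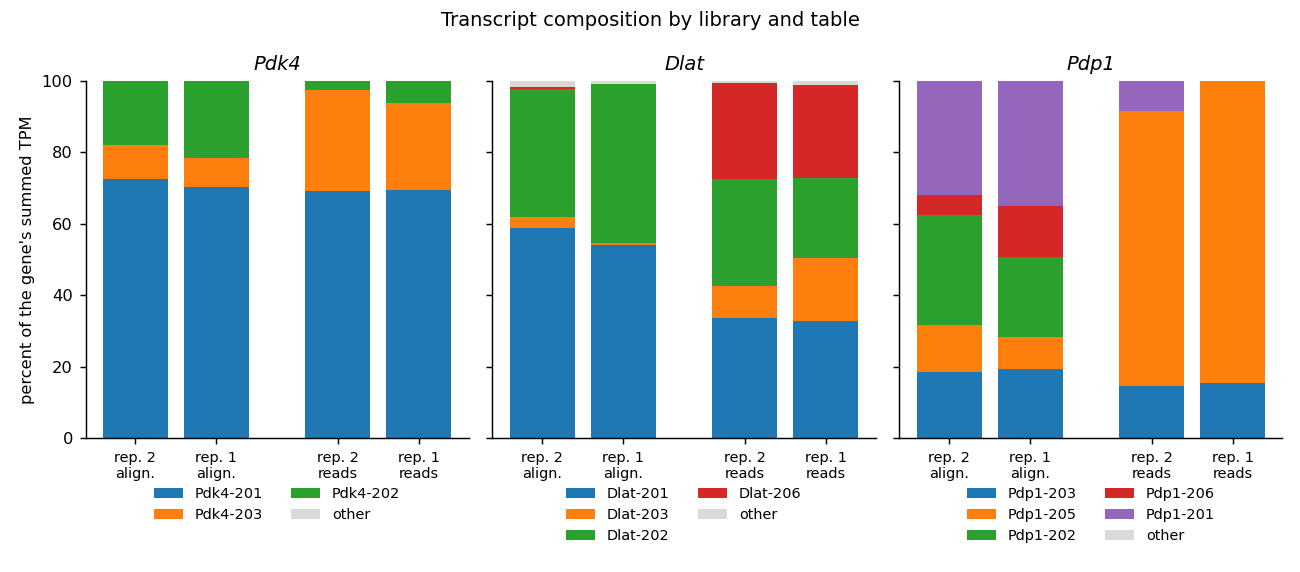
Share of each transcript in the summed TPM of Pdk4, Dlat and Pdp1 (vertical axis, percent), for replicate 2 and replicate 1 in the alignment-based and reads-based tables. Transcripts with at least 10% of the gene in any column are coloured and the rest are grey. Pdk4-201 holds 69.1% to 72.5% in the 4 columns while its short transcripts trade places between tables, and Pdp1-205 holds 9.11% to 13.1% by alignment but 77.0% to 84.6% by reads.

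Sequence shared with other genes, which can affect gene totals, was most extensive in Pdhb. Of the 31-base words of Pdhb, 17.4% also occur in transcripts of other genes, mainly Gm6123, which had 0.64 TPM in replicate 2 and 0.63 TPM in replicate 1 by alignment and 5.77 and 4.80 TPM by reads. Pdhb was also the only member with a posterior SD of its count above 0 in the gene table, at 3.04 counts in replicate 2 and 3.07 in replicate 1, beside totals of 5625 and 3792. For the other members the shared words were at most 2.98%, in Dld, and Dlat, Pdk2 and Pdk3 had none. Coding sequences of the kinases were 67.7% to 69.6% identical to one another, and the kinases shared no word with each other. Genes on the opposite strand overlapped Pdha1, Pdk2 and Pdpr. They were Map3k15 with 12 and 6 counts, Gm11513 with 0 and 0, and 9430091E24Rik with 21 and 15 counts, in replicates 2 and 1.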

How the data were processed

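For each of the 2 libraries of the single group, the authors deposited 3 tables, on mm10 with GENCODE M21. The gene table and one transcript table come from transcriptome alignments and hold expected counts and TPM, per the file headers. The other transcript table comes directly from reads and holds estimated counts and TPM as deposited by the authors. The posterior SD of a count, a score of the certainty of read assignment, is also given, per the file headers. The quantification program is not given in the sources used here.

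Of 81881 rows, 55536 were genes, 97 spike-ins and 26248 tRNA rows, which held 0 and 3 counts in replicates 2 and 1 and were left out. Counts were rounded and scaled with edgeR 4.0.16 (TMM, prior count 0.5), with DESeq2 1.42.0 size factors as an alternative, in R 4.3.3 and Python 3.11.15. Steps were tested on simulated data. Shares have Wilson and ratios exact Clopper-Pearson intervals at 95%, for counting error only. Genes entered counts of ratios from a mean count of 100, and lists from 10. Transcripts were named at 10% of their gene.

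The members and the 18 lists (115 genes) were chosen with earlier results of these data known. Named genes of a list were up to 4 of its highest by TPM, up to 4 past 2-fold in each direction and any listed at 0. Pcx, Dbt, Foxo1, Ppard and Pdhb-204, and the genes of the other observations, were named after their values were seen. The protein table planned for identity between kinases was not used here, so coding sequences were aligned. The values of 4 genes on the lists are not reported here.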

Additional observations from a re-analysis of the deposited data

How the results depend on the processing

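No paired analysis was possible because the series holds 1 group. The share of Pdk4 among the kinases averaged 72.5% over the libraries, 67.6% in the reads-based table and 66.4% with the leading coding transcript only, an alternative chosen after seeing the data; that of Pdk2 averaged 24.6%, 29.4% and 31.01%. Leaving out each library gave 69.3% to 75.7% for Pdk4, 21.5% to 27.7% for Pdk2 and 9 members detected each time. No member was more than 2-fold higher in replicate 2 with TMM, and 1 (Pdk4) was with spike-in scaling or past 1.5-fold. The members' median log2 ratio of 0.45 became 0.84 with spike-in scaling. Genes more than 2-fold higher in replicate 2 numbered 209, against 519 with spike-in scaling, 564 past 1.5-fold, 67 past 4-fold, 695 from a mean count of 10 and 3751 with no filter. Genes more than 2-fold lower numbered 121, against 66, 334, 30, 464 and 2967 under the same alternatives. Of the other values under alternatives, 240 stayed within the spread of the libraries or on the same side of the threshold, 72 moved beyond it, and none that passed 2-fold changed direction. Those that stayed include the values with a library left out. Such a value is that of the other library, so it lies within the spread by construction and is no check. The cause of the moves beyond the spread was not tested, apart from the filters, thresholds and scaling, whose construction sets them. Depth limited Pdk3 alone among the members, at 37 and 32 counts in replicates 2 and 1.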

Other observations

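The 10 genes together took 0.287% of all estimated counts in replicate 2 and 0.198% in replicate 1. Ppm1k, the phosphatase of the branched-chain complex, had 5.75 TPM in replicate 2 and 3.05 TPM in replicate 1. Its log2 ratio of 0.81 equalled that of Pdk4, while the kinase gene of the same complex, Bckdk, had the smallest ratio of the sister complexes, at 0.10. In the pyruvate complex the kinase Pdk4 and the phosphatase Pdp2, at 0.81 and 1.73, lay farthest apart between the libraries. Sdhb, a subunit of succinate dehydrogenase, had the largest ratio of the citric acid cycle genes, at 0.77, and Sucla2, a subunit of succinyl-CoA ligase, had the smallest, at 0.17.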
